A study of Mus musculus with 2 samples.

Results

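Ribosomal-poor cells were defined as barcodes with at least 200 detected genes, under 10% of their unique molecular identifiers (UMIs, each standing for 1 captured transcript) from mitochondrially encoded (mt-) genes and under 15% from ribosomal protein genes. They numbered 887 of 20881 kept cells, of which 582 came from the DHEA library and 305 from the CTRL library. The series profiled CD8+ T cells isolated with magnetic beads from spleens of C57BL/6 mice whose genotype is labelled WT, using droplet-based 3' single-cell RNA sequencing with 1 library per group. In the DHEA group, dehydroepiandrosterone (DHEA, an androgen precursor used to model polycystic ovary syndrome in mice) was injected under the skin each day for 21 days, at 40 mg/kg in 20 µL of sesame oil, and the CTRL group received the oil alone on the same schedule. The sources used here give neither the age and sex of the animals nor their number, and the design text calls the cells pooled.

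Transcripts are made and spliced in the nucleus, and most finished mRNAs then move to the cytoplasm, where ribosomes translate them. Ribosomal protein mRNAs are short, abundant and almost wholly cytoplasmic, while the long noncoding RNA Malat1 stays in the nucleus in speckles that hold splicing factors. In droplet libraries a barcode may hold a whole cell or only part of its contents, and long genes contribute nuclear transcripts whose introns can be captured by the same primers as mRNA tails. Whether reads in introns entered these matrices is a point on which the sources used here are silent.

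The DHEA matrix held 12128 barcodes with 53020893 UMIs and the CTRL matrix 9495 barcodes with 51638782 UMIs, and the libraries had 51 barcodes in common, of which 2 were ribosomal-poor cells in each library. With 1 library per group no test between groups was possible, and the spread between animals is unknown. Intervals are 95% intervals and cover counting error only. The cells were chosen by their ribosomal and mitochondrial shares, so each contrast of ribosomal-poor with other kept cells below is a description without a test.

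Ribosomal-poor cells made up 4.99% of the kept cells in DHEA (exact interval 4.60% to 5.40%) and 3.31% in CTRL (2.96% to 3.70%). The share was 1.68 percentage points higher in DHEA (Newcombe interval 1.13 to 2.21). The cells carried 2.13% of the kept UMIs in DHEA and 1.45% in CTRL. With at least 1000 UMIs required of every cell, the shares were 3.81% in DHEA and 2.98% in CTRL, and the difference was 0.834 points (0.335 to 1.33). The depth of the libraries moved with this difference: other kept cells had a median of 4434 UMIs in DHEA and 5627 in CTRL. Its part in the difference was not tested beyond that requirement.

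**Figure D1:**
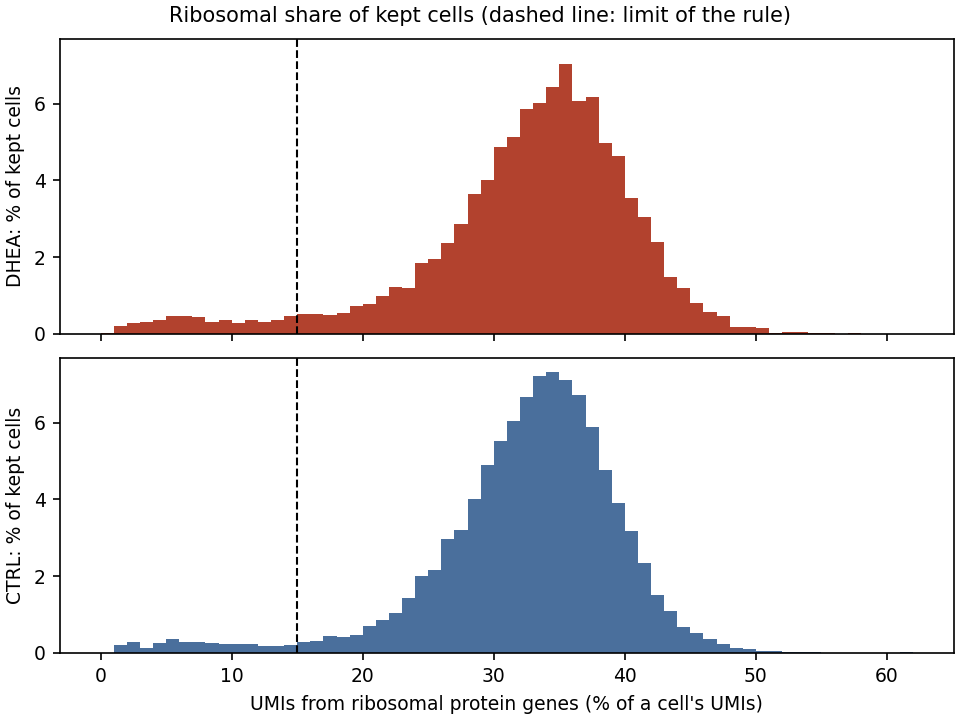
Percent of kept cells (vertical axis) by the percent of a cell's UMIs from ribosomal protein genes (horizontal axis, 1-point bins), DHEA above CTRL, with the dashed line at the 15% limit of the rule. Ribosomal-poor cells formed a low, flat shoulder left of a main peak whose median was 34.3% in DHEA and 33.7% in CTRL.

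Single ribosomal-poor cells were shallow, and mitochondrial transcripts made up a larger share of their UMIs. Their median depth was 1619 UMIs and 1012 genes in DHEA, against 4434 UMIs and 1751 genes in the other cells of that library. In CTRL it was 2093 UMIs and 1217 genes in ribosomal-poor cells, against 5627 UMIs and 2040 genes in the others. The median ribosomal share was 7.74% in DHEA ribosomal-poor cells and 7.65% in CTRL ones. The median mitochondrial share was 5.39% in DHEA ribosomal-poor cells (quartiles 3.38% and 7.73%), against 2.00% in other DHEA cells. It was 6.24% in CTRL ribosomal-poor cells (4.26% and 7.92%), against 2.50% in other CTRL cells. In both libraries the lower quartile of ribosomal-poor cells lay above the median of the others. These shares are of all UMIs, so a fall in ribosomal transcripts would raise them. Mitochondrial UMIs per barcode were not compared.

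Levels below are UMIs summed over the cells of a kind and expressed as CPM, counts per 1000000 of the UMIs left after ribosomal protein and mt- genes were taken out. That scale was used because a fall in ribosomal transcripts would otherwise raise every other gene. Of 33696 genes, 5677 were expected to give at least 20 UMIs in the ribosomal-poor cells of each library and were measured. Of these, 234 genes (4.12%) reached a 2-fold excess in ribosomal-poor over other cells of both libraries, and 781 genes (13.8%) a 2-fold deficit. In DHEA alone 630 genes (11.1%) were 2-fold higher and 995 (17.5%) 2-fold lower, and in CTRL alone 331 (5.83%) were higher and 929 (16.4%) lower. A ratio above 1, of any size, was found for 3180 genes (56.0%) in DHEA and 3085 (54.3%) in CTRL, and counts of higher genes in a list are read against these shares. The 2 libraries gave closely similar ratios (Spearman rho 0.922 across genes, a description over genes that share depth and cells).

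The balance of higher and lower genes depends on the denominator. Per 1000000 of all UMIs 1361 genes were 2-fold higher and 354 lower, while with TMM factors, which centre the bulk of genes, 11 were higher and 1320 lower. The median log2 ratio of all measured genes was 0.16 in DHEA and 0.11 in CTRL on the main scale, 0.60 and 0.55 per 1000000 of all UMIs, and -0.30 in both with TMM factors. Differences between gene groups do not depend on that choice, so each group is read against the median of all genes. Counted as UMIs per barcode, with no scaling, 649 genes (11.4%) had more UMIs in ribosomal-poor cells of both libraries and 4407 (77.6%) had fewer.

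The 4 genes that mark these cells were all at least 2-fold higher. They were chosen as markers with earlier results of these data known, so their excess here is a description. Malat1, the nuclear speckle RNA, stood at 41975 CPM in ribosomal-poor and 19992 CPM in other DHEA cells, and at 52179 CPM in ribosomal-poor and 26046 CPM in other CTRL cells. Its log2 ratio was 1.07 (1.06 to 1.08) in DHEA and 1.00 (0.99 to 1.02) in CTRL. Gphn, which encodes the scaffold protein gephyrin, had 8264 CPM in ribosomal-poor and 2439 CPM in other DHEA cells, and 7260 CPM in ribosomal-poor and 2674 CPM in other CTRL cells. Camk1d, a calcium and calmodulin-dependent kinase gene, had 10917 CPM in ribosomal-poor and 3510 CPM in other DHEA cells, and 10313 and 4279 CPM in those of CTRL. Lars2, which encodes the mitochondrial leucyl-tRNA synthetase, had 3391 CPM in ribosomal-poor and 983 CPM in other DHEA cells, and 3070 and 1130 CPM in those of CTRL. The log2 ratios of these 3 genes lay between 1.27 and 1.79, above that of Malat1.

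All 4 also had more UMIs per barcode in ribosomal-poor cells, although those cells were shallower. A ribosomal-poor cell carried on average 69.5 Malat1 UMIs in DHEA and 109 in CTRL, against 58.9 and 94.0 in other cells. For Gphn the averages were 13.7 in DHEA and 15.2 in CTRL ribosomal-poor cells, against 7.19 and 9.65 in other cells. Lars2 averaged 5.61 and 6.43 UMIs per ribosomal-poor cell in DHEA and CTRL, against 2.90 and 4.08 per other cell. The excess was therefore also present without any scaling. Eef1a1, an elongation factor gene, moved the other way, with 5.80 UMIs per ribosomal-poor cell in DHEA and 6.49 in CTRL, against 49.6 and 59.0 per other cell.

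Among other noncoding transcripts, all 14 measured members of a list of long noncoding and nuclear RNAs were higher in both libraries, with a median log2 ratio of 0.89 in DHEA and 0.71 in CTRL, and 3 of them passed 2-fold in both, although as unscaled UMIs per barcode the mean of the 2 medians was -0.067. Ftx, a noncoding gene of the X inactivation centre, had log2 ratios of 1.09 in DHEA and 1.28 in CTRL. Pvt1, a noncoding neighbour of Myc, had 1.08 and 1.21, and Kcnq1ot1, the imprinted antisense RNA of the Kcnq1 domain, 1.03 and 0.86. Neat1, which builds nuclear paraspeckles, had 0.71 (0.50 to 0.93) in DHEA and 1.40 (1.18 to 1.62) in CTRL, and these intervals do not overlap. Of 25 splicing and speckle genes, which encode proteins rather than resident RNAs, 20 were higher in DHEA and 16 in CTRL, where the share is nearer to that of all genes, with medians of 0.43 and 0.38. Prpf4b, a splicing kinase gene, was the only one 2-fold higher in both, at 1.20 in DHEA and 1.13 in CTRL.

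Genes of T cells that span long stretches of the genome were higher without exception. All 37 of 37 members of that list were higher in both libraries, with medians of 0.91 in DHEA and 0.83 in CTRL, and 6 were 2-fold higher in both. Long genes at large were much the same. Of the 1130 measured genes in the quintile with the longest span, 1087 were higher in DHEA and 1077 in CTRL. Their medians were 0.90 and 0.74, and 15.2% were 2-fold higher in both. Runx1, a transcription factor gene of the T lineage, had 638 CPM in ribosomal-poor and 197 CPM in other DHEA cells, and 545 and 220 CPM in CTRL. Atxn1 had log2 ratios of 1.34 in DHEA and 1.35 in CTRL, and Lrba, whose product guards CTLA4 from breakdown, 1.21 and 1.29. Per barcode, 20 of the 37 had more UMIs in ribosomal-poor than in other cells of both libraries. The summed level of the list was 48876 CPM in ribosomal-poor and 25622 CPM in other DHEA cells, and 49964 CPM in ribosomal-poor and 29292 CPM in other CTRL cells.

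Measured genes were ranked by the smaller ratio of the 2 libraries. The ranking left out immunoglobulin, T cell receptor and haemoglobin genes and genes without an established symbol, such as Gm numbers, Rik symbols or bare Ensembl IDs. The highest ratios in it belonged to Rora, Tex14, Tex2, St6galnac3, Myb, Zfp407, Ahnak, Slc4a7, Mcph1, Lars2, Gphn and Trps1. Rora, which encodes a nuclear receptor, had log2 ratios of 1.70 (1.39 to 2.00) in DHEA and 1.86 (1.49 to 2.20) in CTRL, from 99 and 72 UMIs in ribosomal-poor cells. Ahnak, which encodes a giant scaffold protein, had 1.91 in DHEA and 1.46 in CTRL, and Myb, a transcription factor gene of progenitor and stem-like lymphocytes, 1.59 and 1.48. Most of the Myb excess sat in 1 sub-cluster, number 4 of those described below, with 109 UMIs against 65 in all other ribosomal-poor cells. Those others had 48.4 CPM of Myb, against 39.1 CPM in other DHEA and 34.3 CPM in other CTRL cells. Apart from Lars2 and Gphn these genes gave between 57 and 400 UMIs in the ribosomal-poor cells of a library, so their intervals are wide. Genes that were low in other cells stayed below the floor for this ranking. Among them, chosen after its values were seen, Zeb2, a transcription factor gene of effector cells, had 226 CPM in ribosomal-poor and 25.1 CPM in other DHEA cells, and 169 and 11.1 CPM in CTRL.

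Translation genes that the rule did not use were lower as a group. None of 26 was higher in either library, 20 were at least 2-fold lower in both, and the median log2 ratio was -2.02 in DHEA and -1.86 in CTRL. Eef1b2, an elongation factor subunit, had 394 CPM in ribosomal-poor and 3234 CPM in other DHEA cells, and 355 and 3134 CPM in CTRL. Its log2 ratio was -3.04 (-3.19 to -2.89) in DHEA and -3.14 (-3.33 to -2.95) in CTRL. By the library with the weaker change it was the lowest gene of the ranking, from which genes without an established symbol were left out. Rack1, a scaffold on the small ribosomal subunit, had -2.57 and -2.91, and Naca, part of the complex that meets nascent chains, -2.49 and -2.54. Tpt1, whose mRNA is a classical target of growth-regulated translation, had 3448 CPM in ribosomal-poor and 17399.7 CPM in other DHEA cells, and 3561 and 18434 CPM in CTRL. Fau, which encodes a fusion of a ubiquitin-like protein with a ribosomal protein and escapes the symbol rule, had -2.16 in DHEA and -2.24 in CTRL.

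Many mRNAs of the translation machinery start with a C followed by a run of pyrimidines, the terminal oligopyrimidine tract through which mTOR signalling controls their translation. Start sites of 3 of the depleted genes, picked for the length of their runs after the values were seen, are shown as annotated by RefSeq on GRCm38.p6, plus strand, with 10 bases before and 20 bases from the annotated start. Capitals mark the start and its run.
Rack1: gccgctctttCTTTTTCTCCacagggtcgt
Fau: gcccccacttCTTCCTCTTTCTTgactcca
Eif3f: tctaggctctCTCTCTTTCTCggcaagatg
They lie at chr11:48800350-48800379 (Rack1), chr19:6057937-6057966 (Fau) and chr7:108934405-108934434 (Eif3f, a subunit gene of initiation factor 3). A C at the annotated start and then at least 4 bases that are C or T, read on the gene's own strand, occurred in 813 of 27025 genes (3.01%) of the start-site table and in 144 of 4609 measured genes with an entry (3.12%). In the translation list 7 of 18 genes with an entry (38.9%) had it, and so had 27 of 656 genes (4.12%) that were 2-fold lower and 2 of 181 (1.10%) that were 2-fold higher in both libraries. Within the translation list, the median log2 ratio of the genes with the run was -2.03 in DHEA and -1.73 in CTRL, and of those without it -2.13 and -2.07. The annotated start may not be the start used in these cells.

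The depletion extended to short, abundant mRNAs with no role in translation. None of 25 short cytoplasmic mRNAs was higher, 22 were 2-fold lower in both libraries, and the medians were -1.56 in DHEA and -1.61 in CTRL. The size depended on the limit: the mean of the 2 medians was -1.59 at 15% ribosomal UMIs, -2.50 at 10% and -0.61 at 20%. Tmsb4x, which encodes the actin-binding thymosin beta 4, had 4569 CPM in ribosomal-poor and 13935 CPM in other DHEA cells, and 3560 and 11017 CPM in CTRL. Actb, the beta actin gene, had log2 ratios of -1.02 in DHEA and -0.98 in CTRL, B2m, the light chain of class I MHC, -1.56 and -1.44, and Ppia, the cyclophilin A gene, -2.14 and -2.30. Nuclear genes of oxidative phosphorylation were lower by as much, with 0 of 35 higher, 34 of 35 2-fold lower in both and medians of -1.86 in DHEA and -1.90 in CTRL, and the mean of the 2 was -0.86 at a limit of 20%. Uqcrh, a subunit of complex III, had -2.26 and -2.31, and Atp5g2, a subunit of ATP synthase, -2.24 and -2.42.

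**Figure D2:**
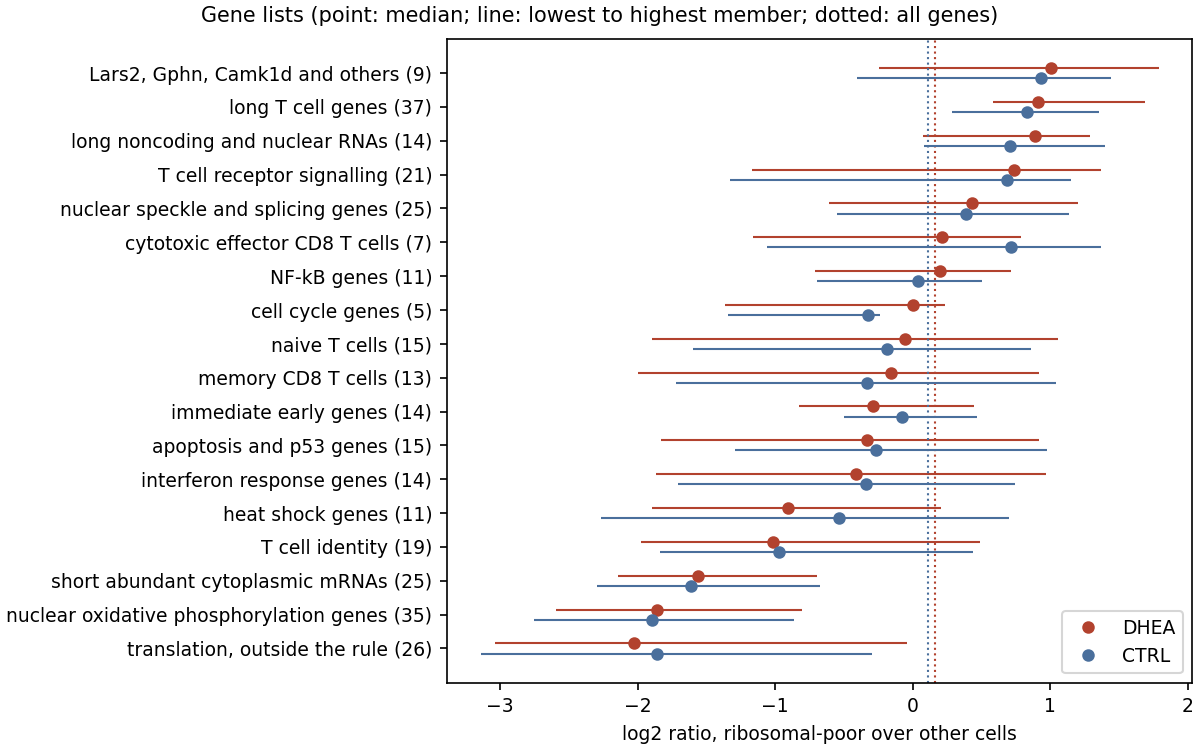
Log2 ratio of ribosomal-poor over other cells (horizontal axis) for gene lists with at least 5 measured members (number in brackets), DHEA above CTRL in each pair. Points are medians, lines run from the lowest to the highest member and dotted lines mark the median of all genes. The lists of long T cell genes and of noncoding transcripts lie at 0.71 to 0.91, and the list labelled Lars2, Gphn, Camk1d and others at 1.00 in DHEA and 0.93 in CTRL. Those of translation, oxidative phosphorylation and short mRNAs lie at -1.56 to -2.02.

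The T cell label was checked on lineage genes, most of which were lower. Cd3e, whose product carries the receptor's signal into the cell, had 544 CPM in ribosomal-poor and 1100 CPM in other DHEA cells, and 479 and 1039 CPM in CTRL. Cd8a and Cd8b1, the chains of the CD8 co-receptor, had log2 ratios of -1.11 and -1.27 in DHEA and -0.97 and -1.19 in CTRL, and Trac, the receptor alpha constant gene, -1.48 and -1.50. The ribosomal-poor cells thus carried these transcripts at lower levels, with 283 Cd8a UMIs in DHEA and 173 in CTRL. Of 19 T cell identity genes, 8 were 2-fold lower in both libraries and none 2-fold higher, while 6 in DHEA and 4 in CTRL had a positive ratio. Cd247, the zeta chain gene, whose values were looked up after the list's medians were seen, was among them, at 0.38 in DHEA and 0.28 in CTRL.

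T cell receptor signalling genes and naive genes held members on either side. Of 21 signalling genes, 16 were higher in DHEA and 15 in CTRL, with medians of 0.74 and 0.68, and 1 was 2-fold higher and 1 2-fold lower in both. Nfatc2, a transcription factor gene that spans 125 kb, had log2 ratios of 1.09 in DHEA and 1.15 in CTRL, and Lat, an adaptor gene of 5.75 kb, -1.17 and -1.33. Naive genes had medians close to all genes, -0.06 in DHEA and -0.18 in CTRL. Bach2, a repressor gene of 347 kb picked after its values were seen, was among their higher members, at 1.02 in DHEA and 0.74 in CTRL. Dapl1 (20.4 kb), Igfbp4 (13.1 kb), Ltb (1.88 kb) and Ccr7 (10.9 kb) were the 4 naive genes lower by 2-fold in both libraries.

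Across all genes the genomic span, the distance between the ends of the annotated gene, ordered the ratios. The Spearman rho of the log2 ratio with span was 0.764 in DHEA and 0.737 in CTRL over 5649 genes with an annotated span, and that with exon length was 0.680 and 0.647. The level in other cells was nearly unrelated, at -0.197 and -0.110. In the quintile of genes with the shortest span (up to 9.43 kb) the median log2 ratio was -1.10 in DHEA and -1.04 in CTRL, and 508 of 1130 genes (45.0%) were 2-fold lower in both. In the quintile with the longest span (from 79.7 kb) it was 0.90 in DHEA and 0.74 in CTRL, and 172 of 1130 (15.2%) were 2-fold higher in both.

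Per barcode, the long genes were present in ribosomal-poor cells about as in others and the short ones were not. The genes of the longest quintile together gave 549 UMIs per ribosomal-poor cell in DHEA and 703 in CTRL, against 523 and 718 per other cell. Those of the shortest quintile gave 289 UMIs per ribosomal-poor cell in DHEA and 370 in CTRL, against 980 and 1130 per other cell. Tmem108, a gene of 279 kb, went against the order: it had log2 ratios of -3.11 (-3.98 to -2.36) in DHEA and -2.83 (-3.84 to -1.99) in CTRL, from 14 and 11 UMIs in ribosomal-poor cells. Malat1 went against it in the other direction, as a gene of 6.98 kb.

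**Figure D3:**
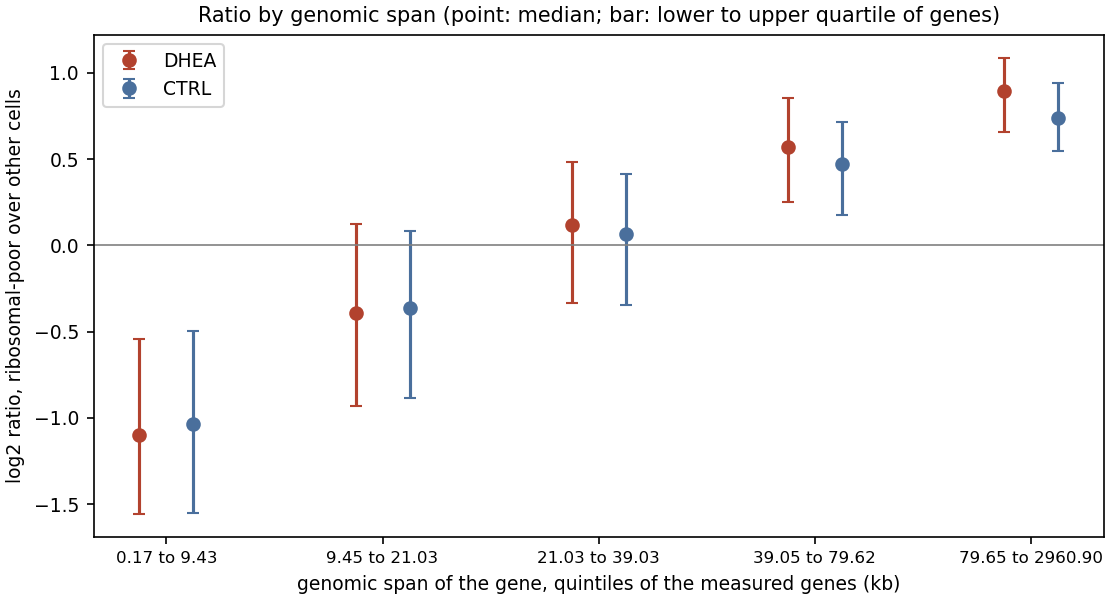
Log2 ratio of ribosomal-poor over other cells (vertical axis) in quintiles of genes by genomic span in kb (horizontal axis), DHEA left of CTRL. Points are medians and bars run from the lower to the upper quartile of genes: the medians climb from -1.10 and -1.04 in the shortest quintile to 0.90 and 0.74 in the longest.

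Near the 15% limit the levels of marker genes were lower outside it and those of short mRNAs higher. Just inside it, cells with a ribosomal share of 14% to 15% (53 in DHEA, 18 in CTRL) had 5075 CPM of Gphn in DHEA and 5337 in CTRL. Just outside it, cells of 15% to 16% (59 and 26) had 4013 CPM of Gphn in DHEA and 4092 in CTRL. Malat1 in the same 2 bins stood at 32871 and 24644 CPM in DHEA and at 37379 and 33752 CPM in CTRL. The short cytoplasmic mRNAs summed to 54184 CPM inside and 81850 CPM outside in DHEA, and to 47556 and 62751 CPM in CTRL. Actb stood at 7697 CPM inside and 12468 CPM outside in DHEA, and at 8357 and 8574 CPM in CTRL. The median mitochondrial share was 2.72% inside and 2.74% outside the limit in DHEA, and 3.06% and 2.35% in CTRL.

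Along the ribosomal share the marker genes and the long T cell genes took different courses. Gphn peaked at 11384 CPM in DHEA and 10315 CPM in CTRL in cells with 5% to 10% ribosomal UMIs (239 and 131 cells). In cells under 5% (138 in DHEA, 81 in CTRL) Gphn was lower, at 5852 CPM in DHEA and 4565 CPM in CTRL. Camk1d and Lars2 peaked in the same bin, at 15100 and 4739 CPM in DHEA and 14214 and 4330 CPM in CTRL. The 37 long T cell genes were instead highest under 5%, at 64580 CPM in DHEA and 65219 CPM in CTRL, and stood at 50481 and 49169 CPM between 5% and 10%. The translation list climbed at every step, with 7259 CPM in DHEA and 6853 CPM in CTRL under 5%, and 83800 and 82334 CPM at 35% and above. Cells under 5% also had the highest median mitochondrial share, 6.12% in DHEA and 7.34% in CTRL.

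**Figure D4:**
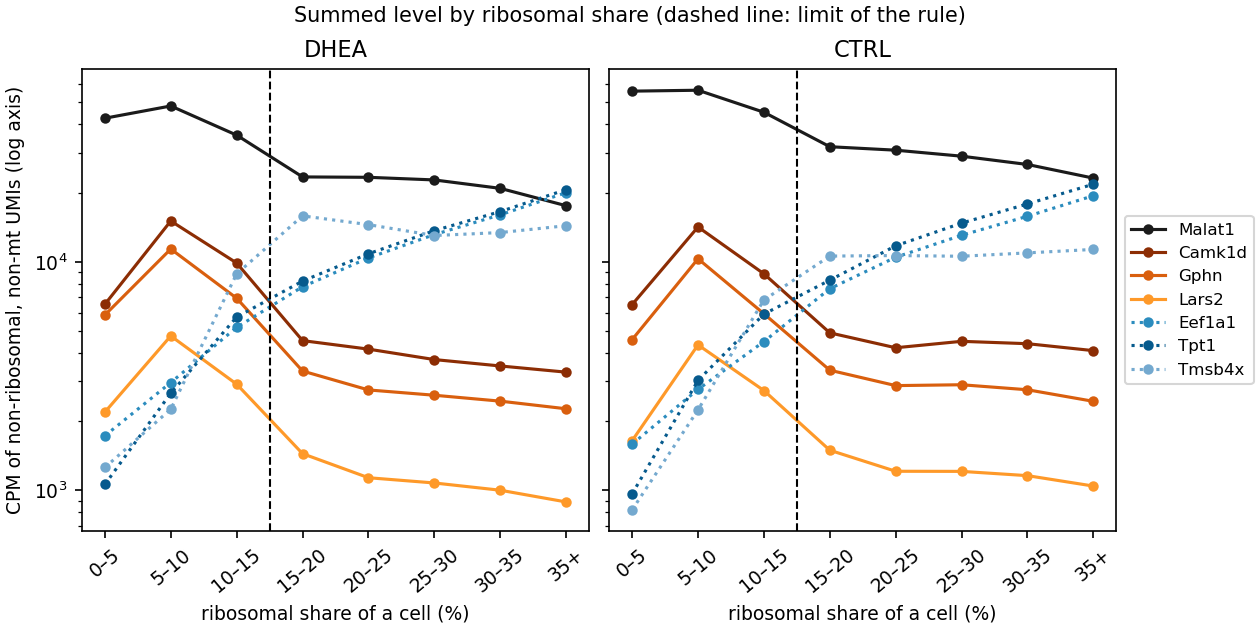
Summed level of 7 genes in CPM of non-ribosomal, non-mitochondrial UMIs (vertical log axis) by ribosomal share of the cells (horizontal axis, bins in percent), DHEA left and CTRL right, with the dashed line at the 15% limit. Gphn, Camk1d and Lars2 (solid) peak at 5% to 10%, where Gphn reached 11384 CPM in DHEA and 10315 CPM in CTRL, while Eef1a1, Tpt1 and Tmsb4x (dotted) fall towards low ribosomal share.

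Barcodes over the mitochondrial limit mostly met the ribosomal limit too. Of those removed for mitochondrial share alone, 411 of 453 (90.7%) in DHEA and 281 of 282 (99.6%) in CTRL had under 15% ribosomal UMIs. Without a mitochondrial limit, ribosomal-poor barcodes would be 993 of 12124 (8.19%) in DHEA and 586 of 9492 (6.17%) in CTRL. The removed ones had 36765 CPM of Malat1 in DHEA and 49417 CPM in CTRL, and 8463 and 6475 CPM of Gphn. These are sums, and the medians of single barcodes were lower than in ribosomal-poor cells kept. As a share of non-ribosomal, non-mitochondrial UMIs, median Gphn was 0.48% in DHEA and 0.32% in CTRL, against 0.81% and 0.72% in those kept. Median Malat1 was 2.92% and 4.42%, against 4.43% and 5.31%. The Tpt1 level of the removed barcodes was 1480 CPM in DHEA and 1658 CPM in CTRL, below the 3448 and 3561 CPM of the ribosomal-poor cells kept. Their Tmsb4x level was 1365 CPM in DHEA and 1127 CPM in CTRL, below the 4569 and 3560 CPM of those kept.

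Clustering the ribosomal-poor cells on genes outside the ribosomal, mitochondrial and receptor sets gave 5 sub-clusters, each with cells of both libraries. Since the clusters were made from these genes, their leading genes are a description. Sub-cluster 1 (150 DHEA and 81 CTRL cells) held Fos, the immediate early transcription factor gene, and Ppp1r15a among its 10 leading genes. Its immediate early list summed to 9672 CPM, against 2678 to 7008 CPM in the other sub-clusters. Sub-cluster 2 (127 and 76 cells) was led by Ntrk3 and Ccr9, a chemokine receptor gene, and had the highest level of long T cell genes, 66968 CPM. Its Gphn level was 4772 CPM and its median ribosomal share 4.96%. Sub-cluster 3 (127 and 66 cells) held Camk1d, Lars2 and Gphn among its leading genes, with 21069, 6354 and 14837 CPM. Sub-cluster 4 (114 and 47 cells) was led by Hdac9, Myb and Cobll1, with Ikzf2, which encodes Helios, also among its leading genes.

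Sub-cluster 5 (64 DHEA and 35 CTRL cells) stood apart from the other 4 and bore out the label of cells rich in nuclear transcripts less than they did. It was led by Gzma, a cytotoxic granule protease gene, Lgals3 and Tyrobp, its median ribosomal share was 12.6% and its median mitochondrial share 2.16%. Its short cytoplasmic mRNAs summed to 63458 CPM, against 14760 to 19392 CPM in the other 4, and its Malat1 level was 31004 CPM, against 38379 to 58926 CPM. Gphn stood at 3103 CPM, close to the 2439 CPM of other DHEA cells and the 2674 CPM of other CTRL cells. Malat1 was still above its level in other cells, at 26434 CPM against 19992 CPM in DHEA and 38201 CPM against 26046 CPM in CTRL. Lars2 was also above, at 1164 CPM against 983 CPM in DHEA and 2309 CPM against 1130 CPM in CTRL. It held 3541 of the Ccl5 UMIs, 691 of the Gzma UMIs and 120 of the Gzmb UMIs of ribosomal-poor cells, of totals in DHEA and CTRL of 3003 and 901 for Ccl5, 392 and 304 for Gzma and 100 and 25 for Gzmb. Its Cd3e level was 890 CPM, above the 380 to 492 CPM of the others, while Cd8a, at 262 CPM, lay within their 182 to 361 CPM and Cd8b1, at 782 CPM, within their 479 to 891 CPM. Without sub-cluster 5, 360 genes were 2-fold higher in ribosomal-poor cells of both libraries, against 234 with it.

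**Figure D5:**
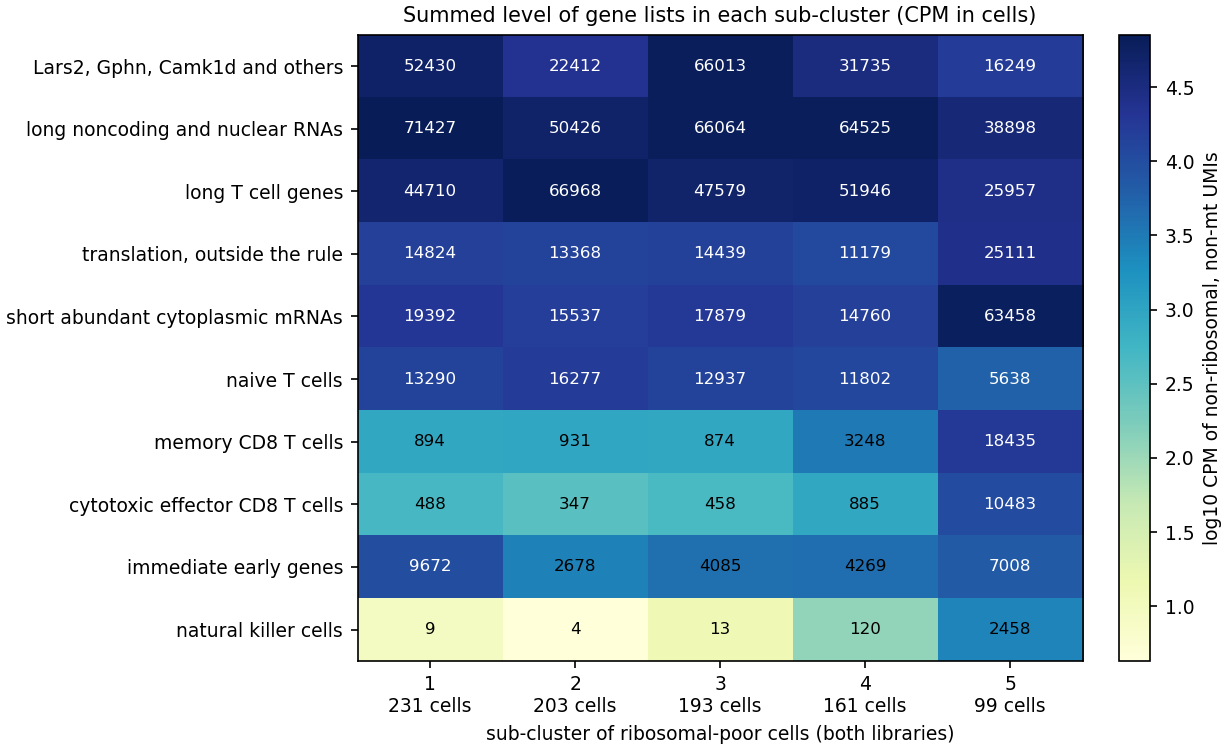
Summed level of 10 gene lists (rows, CPM of non-ribosomal, non-mitochondrial UMIs written in each cell, colour on a log10 scale) in the 5 sub-clusters of ribosomal-poor cells from both libraries (columns, with cell numbers). Sub-cluster 5 holds the highest level of short cytoplasmic mRNAs (63458 CPM) and of memory, effector and natural killer genes, and sub-cluster 2 that of long T cell genes (66968 CPM).

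Summed markers of natural killer, gamma delta and natural killer T cells and, in DHEA, neutrophils were higher in ribosomal-poor cells. The sums of B cell and monocyte markers, each carried by few genes, were lower. The 10 natural killer cell markers summed to 297 CPM in ribosomal-poor and 89.3 CPM in other DHEA cells, and to 759 CPM in ribosomal-poor and 60.2 CPM in other CTRL cells, and all 10 had UMIs in the ribosomal-poor cells of each library. Ncr1, the natural killer receptor gene, had 16 UMIs in DHEA and 34 in CTRL ribosomal-poor cells, of which sub-cluster 5 held 15 and 33. The 5 gamma delta and natural killer T cell markers, mostly Trdc and Zbtb16, summed to 125 CPM in ribosomal-poor and 32.0 CPM in other DHEA cells, and to 103 and 29.6 CPM in CTRL, with Il17a at 0. The 10 neutrophil markers summed to 526 CPM in ribosomal-poor and 0.918 CPM in other DHEA cells, and to 6.26 and 1.71 CPM in CTRL. All 201 S100a8 UMIs and 253 of 254 S100a9 UMIs of DHEA ribosomal-poor cells came from single barcodes, and CTRL ones had 0 of either, which allows up to 3. The neutrophil genes Ly6g, Camp, Ngp and Ltf were at 0 in the ribosomal-poor cells of both libraries. B cell markers summed to 199 CPM in ribosomal-poor and 470 CPM in other DHEA cells, and to 197 and 435 CPM in CTRL, most of it Ighm, and Ms4a1 and Pax5 were at 0 in ribosomal-poor cells. Monocyte and macrophage markers summed to 143 and 350 CPM in ribosomal-poor and other cells of DHEA, and to 174 and 363 CPM in CTRL. Pecam1, the one marker of stromal and endothelial cells with UMIs in ribosomal-poor cells of both libraries, had 358 CPM in ribosomal-poor and 173 CPM in other DHEA cells, and 354 and 218 CPM in CTRL. The part of these cell types in the results was not tested beyond leaving out sub-cluster 5.

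Between the libraries, ribosomal-poor cells were alike in most genes. Of 3598 genes with at least 100 UMIs summed over the ribosomal-poor cells of both libraries, 93 (2.58%) were higher by 1.5-fold or more in DHEA and 78 (2.17%) lower by as much, and the median log2 ratio was 0.02. In the other cells the same genes gave 35 higher and 16 lower with a median of -0.07, at far greater depth. Of the 93 and 78, 18 and 9 were past 1.5-fold in the same direction in other cells. All of these are ratios of 1 library to another.

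Ccl5, which encodes a chemokine of antigen-experienced CD8 T cells, was higher in DHEA in both kinds of cells. It had 3118 CPM in DHEA and 1410 CPM in CTRL ribosomal-poor cells, a log2 ratio of 1.14 (1.04 to 1.25), against 1.10 in other cells. Sub-cluster 5 held 2757 of the 3003 DHEA and 784 of the 901 CTRL Ccl5 UMIs, and without it the log2 ratio was 0.49. S100a6, a calcium-binding protein gene of effector cells, had 309 CPM in DHEA and 116 CPM in CTRL, a log2 ratio of 1.42 (1.05 to 1.80), against 1.62 in other cells. Sub-cluster 5 held 289 of its 298 DHEA and 71 of its 74 CTRL UMIs. Gzmb, the granzyme B gene, had 104 CPM in DHEA and 39.1 CPM in CTRL, a log2 ratio of 1.41 (0.76 to 2.10), against 4.44 in other cells. Its UMIs came from 33 cells in DHEA and 7 in CTRL, and sub-cluster 5 held 95 of the 100 in DHEA and all 25 in CTRL.

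Gzma differed between the kinds of cells. In ribosomal-poor cells it had 407 CPM in DHEA and 476 CPM in CTRL, a log2 ratio of -0.23 (-0.45 to -0.0046), while in other cells the log2 ratio of DHEA over CTRL was 3.66 (3.45 to 3.87). In CTRL, ribosomal-poor cells carried 304 Gzma UMIs and all 8905 other cells 199. Those 304 UMIs came from 10 cells, 3 of which held 190, and 303 of them fell in sub-cluster 5, where the natural killer markers sat.

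Hspa1b and Klf2, both higher in DHEA among the other cells, had smaller ratios here. Hspa1b, an inducible heat shock protein gene, had 142 CPM in DHEA and 129.9 CPM in CTRL ribosomal-poor cells, a log2 ratio of 0.13 (-0.27 to 0.54), while in other cells it was 1.74 (1.67 to 1.80). Klf2, a transcription factor gene of quiescent, recirculating T cells, had 770.5 CPM in DHEA and 647 CPM in CTRL, a log2 ratio of 0.25 (0.08 to 0.43), against 0.64 (0.61 to 0.66).

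The marker genes themselves differed little between libraries. Gphn had a log2 ratio of 0.19 (0.13 to 0.24) in ribosomal-poor and -0.13 in other cells, Lars2 0.14 (0.06 to 0.23) and -0.20, and Camk1d 0.08 (0.04 to 0.13) and -0.29. Malat1 was lower in DHEA in both, at -0.31 in ribosomal-poor and -0.38 in other cells. Neat1 had -0.51 (-0.82 to -0.21) in ribosomal-poor and 0.17 (0.11 to 0.24) in other cells.

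The ranking of ratios between libraries also left out immunoglobulin and receptor genes and genes without an established symbol. In it Hdac9, a histone deacetylase gene that spans 869.5 kb, had the highest ratio after S100a8 and S100a9. It had 304 CPM in DHEA and 103 CPM in CTRL ribosomal-poor cells, a log2 ratio of 1.56 (1.17 to 1.97), while in other cells it was -0.71 (-0.88 to -0.54). Its 293 UMIs in DHEA came from 25 cells, 3 of which held 155, and its 66 UMIs in CTRL from 16 cells, 3 of which held 34. Sub-cluster 4 held 267 of the 293 and 28 of the 66. The lowest ratios belonged to Fcer1g, at -1.95 (-2.59 to -1.34), Klrb1c, at -1.42, Rgcc, at -1.10, and Tyrobp, at -0.98, followed by Arhgap18 and Atg4a. Of these, Fcer1g and Tyrobp turned to 0.46 and 4.27 at a ribosomal limit of 10%, and Klrb1c to 0.16 without sub-cluster 5. Fcer1g, Klrb1c and Tyrobp, which encode natural killer receptors or their signalling adaptors, came from 5 to 17 cells in DHEA and 8 to 19 in CTRL, and Fcer1g and Klrb1c had log2 ratios of -0.41 and 0.19 in other cells.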

How the data were processed

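Splenic CD8+ T cells of DHEA-treated and oil-treated (CTRL) mice were profiled, 1 library per group. Values are raw UMI counts for each gene in each barcode, as the authors deposited them; per the file headers, Cell Ranger 8.0.1 wrote the matrices. Seurat 4.3.0 and the build mm39 appear in the submitters' processing notes with no role. The sources used here do not say whether introns were counted or barcodes filtered. The lowest barcode held 500 UMIs in DHEA and 501 in CTRL.

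The rule removed 4 and 3 barcodes with under 200 genes in DHEA and CTRL, and a further 453 and 282 with at least 10% mitochondrial UMIs. Its symbol pattern matched 102 ribosomal genes, 12 of them kinase or binding protein genes, and 13 mt- genes. The members and gene lists were chosen with earlier results of these data known.

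UMIs were summed per library and kind of cell: 963053 non-ribosomal, non-mitochondrial UMIs in DHEA and 638799 in CTRL ribosomal-poor cells, and 32682131 and 32128416 in other cells. CPM is per 1000000 of these. Log2 ratios have exact binomial intervals, shares Clopper-Pearson intervals and their difference a Newcombe interval. A sum of 0 was put at 3 UMIs. Named genes were the 4 markers, the 12 highest and 12 lowest ratios by the smaller of the 2 libraries, up to 4 per list, the 6 highest and 6 lowest DHEA over CTRL ratios and a fixed panel of 26 genes. The highest and lowest were taken after leaving out immunoglobulin, T cell receptor and haemoglobin genes and genes without an established symbol. Others are named as leading a sub-cluster or were picked after their values were seen, which is not marked at every gene. Some genes that the rule named are not reported here. The steps were tested on simulated counts.

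Sub-clusters came from 2000 variable genes scaled within each library, 20 principal components, a graph of shared neighbours among 15 nearest and Leiden clustering at resolution 1.0. Gene spans came from the GENCODE annotation of GRCm38 by Ensembl ID (99.5% of measured genes matched), with no coordinates used from it, and start sites from the RefSeq table on GRCm38.p6. Scrublet marked 1 DHEA and 0 CTRL cells, too few to be taken as working, and no doublets were removed. Tools were Python 3.11.15, numpy 2.4.6, scipy 1.17.1, pandas 2.3.3, scanpy 1.11.5, leidenalg 0.10.2, igraph 0.11.9 and, for the TMM alternative, edgeR 4.0.16 in R 4.3.3.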

Additional observations from a re-analysis of the deposited data

Results flagged for a closer look

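Hdac9 moved in opposite directions between the libraries in the 2 kinds of cells. Its log2 ratio of DHEA over CTRL was 1.56 in ribosomal-poor cells and -0.71 in other cells, with counting intervals on opposite sides of 0. The difference was not tested, and 3 cells held 155 of the 293 DHEA UMIs.

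Hspa1b was lower in ribosomal-poor than in other cells of the DHEA library, with a log2 ratio of -0.91, and higher in CTRL, with 0.70. It had 0.235 UMIs per ribosomal-poor cell in DHEA and 0.272 in CTRL, against 0.788 and 0.289 per other cell, so the libraries differed mainly in the other cells. The difference was not tested.

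Barcodes removed for their mitochondrial share held a signal outside the main comparison. Ribosomal-poor barcodes over that limit were 3.39% of the DHEA barcodes with at least 200 genes and 2.96% of the CTRL ones, with median mitochondrial shares of 14.8% in DHEA and 16.4% in CTRL and median depths of 1153 and 1405 UMIs.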

How the results depend on the processing

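No paired analysis was possible because each group has 1 library, and for the same reason no library could be left out. The share of ribosomal-poor cells in DHEA and CTRL, and its difference in points, was 3.23%, 2.30% and 0.928 at a ribosomal limit of 10%, and 7.75%, 5.19% and 2.56 at 20%. A mitochondrial limit of 5% gave 2.32% in DHEA and 1.13% in CTRL, and no such limit 8.19% and 6.17%. With at least 500 genes the DHEA share was 4.53%, and with at least 1000 UMIs 3.81% with a difference of 0.834. DHEA was above CTRL in all 9 settings. No mitochondrial limit, kinase and binding protein genes left out of the ribosomal share, UMIs per barcode and the omission of sub-cluster 5 were chosen after seeing the data.

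Genes 2-fold higher and lower in ribosomal-poor cells (234 and 781) became 1361 and 354 per 1000000 of all UMIs, 11 and 1320 with TMM factors, 73 and 145 at a ribosomal limit of 20%, 44 and 338 with a higher floor on UMIs, and 0 and 1900 as UMIs per barcode. The higher ones alone became 358 at a limit of 10%, 399 with a lower floor, 1249 with none and 360 without sub-cluster 5. Genes 1.5-fold higher and lower in DHEA (93 and 78) became 59 and 38 at 10%, 179 and 148 at 20%, 761 and 690 with a lower floor, 1 and 2 with a higher one, 1528 and 1440 with none, and 16 and 553 as UMIs per barcode, with 46 lower without sub-cluster 5.

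As the mean of both libraries, the median log2 ratio of long noncoding RNAs (0.74) was 1.18 per 1000000 of all UMIs, 0.30 with TMM, 0.55 at 20% and -0.067 as UMIs per barcode. That of long T cell genes (0.87) was 1.31, 0.43, 0.54 and 0.058 in the same settings, 1.06 at 10%, 1.07 against other cells of like depth and 1.03 without sub-cluster 5. The translation list (-1.89) had -2.33 with TMM, -1.33 at 20% and -2.70 as UMIs per barcode. Short mRNAs (-1.59) had -1.15 per 1000000 of all UMIs, -2.02 with TMM, -1.83 with cells weighed equally, -2.50 at 10%, -0.61 at 20%, -2.40 as UMIs per barcode and -2.24 without sub-cluster 5. Oxidative phosphorylation genes (-1.87) had -1.43, -2.30, -2.09, -2.72, -0.86, -2.68 and -2.55 in those settings. T cell identity genes (-1.01) had -1.45 with TMM and -1.82 as UMIs per barcode.

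Between the libraries, Fcer1g and Tyrobp turned to 0.46 and 4.27 at a limit of 10%, and Klrb1c to 0.16 without sub-cluster 5. At a limit of 20% the ratio to other cells turned to 0.14 for Nkg7 in DHEA and to 0.55 for Cst3 and 0.46 for Cxcr3 in CTRL, and without sub-cluster 5 to -0.57 for Tbx21 in CTRL. The cause was not tested. At resolutions of 0.5 and 1.5 the clustering gave 3 and 10 sub-clusters. All 99 cells of sub-cluster 5 stayed together at the lower and 58 at the higher resolution, so the boundaries between sub-clusters are not fixed by the data. Depth limits single genes: Hdac9 and the lowest genes rest on under 300 UMIs in each library. Hdac9, Fcer1g, Klrb1c and Tyrobp came from 5 to 25 cells of a library, and Rgcc, Arhgap18 and Atg4a from 47 to 75.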

Other observations

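Scores for cell state were spread unevenly over ribosomal-poor cells. Outside sub-cluster 5 the naive list summed to 11802 to 16277 CPM and the effector list to 347 to 885 CPM, and in sub-cluster 5 they stood at 5638 and 10483 CPM. The memory list reached 3248 CPM in sub-cluster 4, against 874 to 931 CPM in sub-clusters 1 to 3, and 18435 CPM in sub-cluster 5. In sub-cluster 4 Ikzf2 stood at 739 CPM, against 59.4 to 272 CPM elsewhere, and Myb at 421 CPM, against 10.1 to 80.6 CPM.

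Of 15 measured apoptosis and p53 genes, which include both promoters and inhibitors of cell death, 7 were higher in ribosomal-poor cells of DHEA and 5 in CTRL, against 56.0% and 54.3% of all genes, with median log2 ratios of -0.33 and -0.27. Bbc3, which encodes PUMA, had -1.83 in DHEA and -1.05 in CTRL, and Bax -1.16 and -1.29, while Trp53inp1 had 0.86 and 0.97. Bcl2, an inhibitor of cell death picked after its values were seen, had 0.92 in DHEA and 0.60 in CTRL. Interferon response genes had medians of -0.41 in DHEA and -0.34 in CTRL, immediate early genes -0.29 and -0.08 and NF-kB genes 0.20 and 0.04.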
